A study of Mus musculus with 44 samples.

Results

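The 10 genes described here encode both hypoxia-inducible factor alpha subunits made in macrophages, the enzymes and transporter that set the pace of glycolysis, and a growth factor under the control of those factors. They are Hif1a, Epas1, Slc2a1, Hk1, Hk2, Pfkp, Pfkfb3, Ldha, Pdk1 and Vegfa, taken by symbol from 4 count tables, and they are 10 of the 24940 genes that each table lists. Poly(A) RNA was sequenced from bone marrow-derived macrophages (BMDMs) of C57BL/6 mice, in 44 libraries that form 22 groups of 2. The study asked which extracellular signals need the nuclear receptor corepressor NCoR and its partners for gene activation, and the comparisons here ask how these 10 genes responded to each signal and to each loss of a partner.

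In the first table (24 libraries), WT cells came from NCoR flox/flox mice and NKO cells from NCoR flox/flox mice carrying LysM-Cre, a Cre recombinase inserted in Lyz2 that is active in the myeloid lineage. Both genotypes received vehicle (Veh), KLA (Kdo2 lipid A, an agonist of the lipopolysaccharide receptor TLR4), poly I:C (a synthetic double-stranded RNA sensed by TLR3), IFNb (interferon beta) or IL4 for 6 h, or RANKL, the cytokine that drives osteoclast differentiation, for 12 h. In the RGFP966 table (6 libraries), wild-type cells received vehicle, KLA, or KLA with RGFP966, an inhibitor of the histone deacetylase HDAC3. Pgc1b flox/flox cells with or without LysM-Cre received vehicle or KLA in the Pgc1b table (8 libraries). The labels give 6 h for both KLA groups of this table, but the column names state that time for Pgc1b_flox_KLA and no time for Pgc1b_flox_Cre_KLA. The TBK1i table (6 libraries) held wild-type cells given DMSO with vehicle, DMSO with KLA, or an inhibitor of the kinase TBK1 (TBK1i) with KLA. Per the study's methods, both inhibitors were added when serum was withdrawn, 12 h before KLA. No group received an inhibitor without KLA. A change already present before KLA therefore cannot be told apart from a change of the response to KLA. Nothing states that the 2 libraries of a group came from separate mice, so p-values measure the spread between these libraries, which may be technical.

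HIF1A and EPAS1 (also called HIF-2 alpha) each pair with ARNT to bind DNA and switch on genes for glucose uptake, glycolysis and vessel growth. In the presence of oxygen, prolyl hydroxylases mark both subunits for destruction through VHL, so that much of their control lies in the protein and is not seen in RNA. In macrophages, inflammatory signals raise Hif1a transcription and shift metabolism toward glycolysis, in which glucose enters through transporters such as SLC2A1, is trapped by hexokinases, committed by phosphofructokinase, and leaves as lactate through LDHA. PDK1 is a kinase that inhibits pyruvate dehydrogenase, the enzyme that commits pyruvate to oxidation in mitochondria.

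The library totals ranged from 8323493 to 16783155 reads in genes, and 3 counts corresponded to 0.179 to 0.36 CPM (the usual scaling of a count to the total of reads in genes, from here on with TMM factors), a limit that covers counting error only. The lowest count of a member was 8, for Epas1. All 10 members were tested in all 4 tables. The macrophage markers were present in every library, with a summed level between 9839 and 24218 CPM over 9 genes. Of the other marker lists, the neutrophil sum lay between 1.34 and 22.8 CPM except in the RANKL libraries, and no lymphocyte or erythroid sum exceeded 4.25 CPM. The osteoclast sum over 8 genes lay between 293 and 2653 CPM and was higher in NKO than in WT in every condition, without overlap. The endothelial sum (1.37 to 300.3 CPM) was mostly Kdr, which was higher with KLA and poly I:C. Ncor1 averaged 51.0 to 62.3 CPM in the NKO groups and 136 to 214 CPM in the WT groups. Ppargc1b mRNA does not fall in the Pgc1b flox Cre cells. Within these counts, that label is therefore checked only by Lyz2, the gene that carries Cre, which was lower by 0.90 on the log2 scale under vehicle. The study presents an immunoblot of the PGC1β protein in BMDMs of both Pgc1b genotypes, which RNA counts cannot show. The date stamps of the NKO_KLA libraries precede those of WT_KLA by 1401 days and those of WT_Veh by 1516 days. Xist also separated them: 34 libraries had at least 5206 Xist counts, and the 10 libraries with at most 1 count were NKO_KLA and the 4 Pgc1b groups, so that under KLA genotype, date and sex of the cells cannot be told apart between NKO and WT. The WT_KLA libraries are dated 115 days before WT_Veh, and the RANKL libraries 536 days before WT_Veh.

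The promoter sequences of 5 members are shown because the genes they belong to responded in unlike ways although 4 of them carry the same short motif. Each is the 150 bases before the RefSeq transcription start on GRCm38.p6, 5′ to 3′ on the gene's strand. Capitals mark, on either strand, the core of the HIF binding element (ACGTG or GCGTG, read as CACGT or CACGC on the other strand) or, in Vegfa, a match to the NF-kB consensus.
Hif1a (chr12:73907717-73907866, plus strand): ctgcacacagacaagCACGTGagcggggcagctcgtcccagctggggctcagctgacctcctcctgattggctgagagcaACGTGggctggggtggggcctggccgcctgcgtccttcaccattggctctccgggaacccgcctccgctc
Slc2a1 (chr4:119108595-119108744, plus strand): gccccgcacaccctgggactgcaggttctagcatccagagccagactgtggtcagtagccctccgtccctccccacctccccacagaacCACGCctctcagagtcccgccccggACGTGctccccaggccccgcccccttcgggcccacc
Pfkfb3 (chr2:11502091-11502240, minus strand): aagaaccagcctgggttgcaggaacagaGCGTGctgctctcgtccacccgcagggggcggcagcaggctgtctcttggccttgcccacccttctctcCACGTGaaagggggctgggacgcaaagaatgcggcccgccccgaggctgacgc
Ldha (chr7:46845654-46845803, plus strand): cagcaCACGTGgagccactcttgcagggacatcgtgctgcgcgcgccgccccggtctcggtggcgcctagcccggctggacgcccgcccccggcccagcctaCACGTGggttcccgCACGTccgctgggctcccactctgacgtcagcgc
Vegfa (chr17:46032378-46032527, minus strand): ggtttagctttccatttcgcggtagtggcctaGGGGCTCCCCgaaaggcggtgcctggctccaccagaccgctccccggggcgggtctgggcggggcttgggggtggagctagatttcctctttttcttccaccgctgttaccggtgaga

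A window was found for 9 of the 10 members (Epas1 had none), and within 250 bases before the start 8 of these 9 held a HIF core in either form, 5 with ACGTG and 5 with GCGTG. Of all 32851 windows of that length, 38.6% held either form, 16.6% ACGTG and 28.2% GCGTG. The E-box CACGTG, which contains ACGTG on both strands, was in 3 of the 9 (Hif1a, Pfkfb3 and Ldha) and in 6.02% of all windows. The NF-kB consensus matched 1 of the 9, Vegfa, and 3.9% of all windows. Sequence outside these 250 bases was not searched, so a member without a core here may carry one elsewhere. A match of letters is a description of the sequence and not of binding.

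In the 8 control libraries under vehicle, levels compared per kilobase of exon put Ldha first, with a median of 171 CPM per kb (144 to 352). Hk1 (median 20.6 CPM per kb), Hif1a (17.3), Pfkp (16.96), Vegfa (15.4), Slc2a1 (15.3) and Pdk1 (11.2) followed. Pfkfb3 (7.11), Hk2 (6.94) and Epas1 (5.53) were the lowest. The resting cells thus held more Hif1a than Epas1 RNA per kb and more Hk1 than Hk2.

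**Figure D1:**
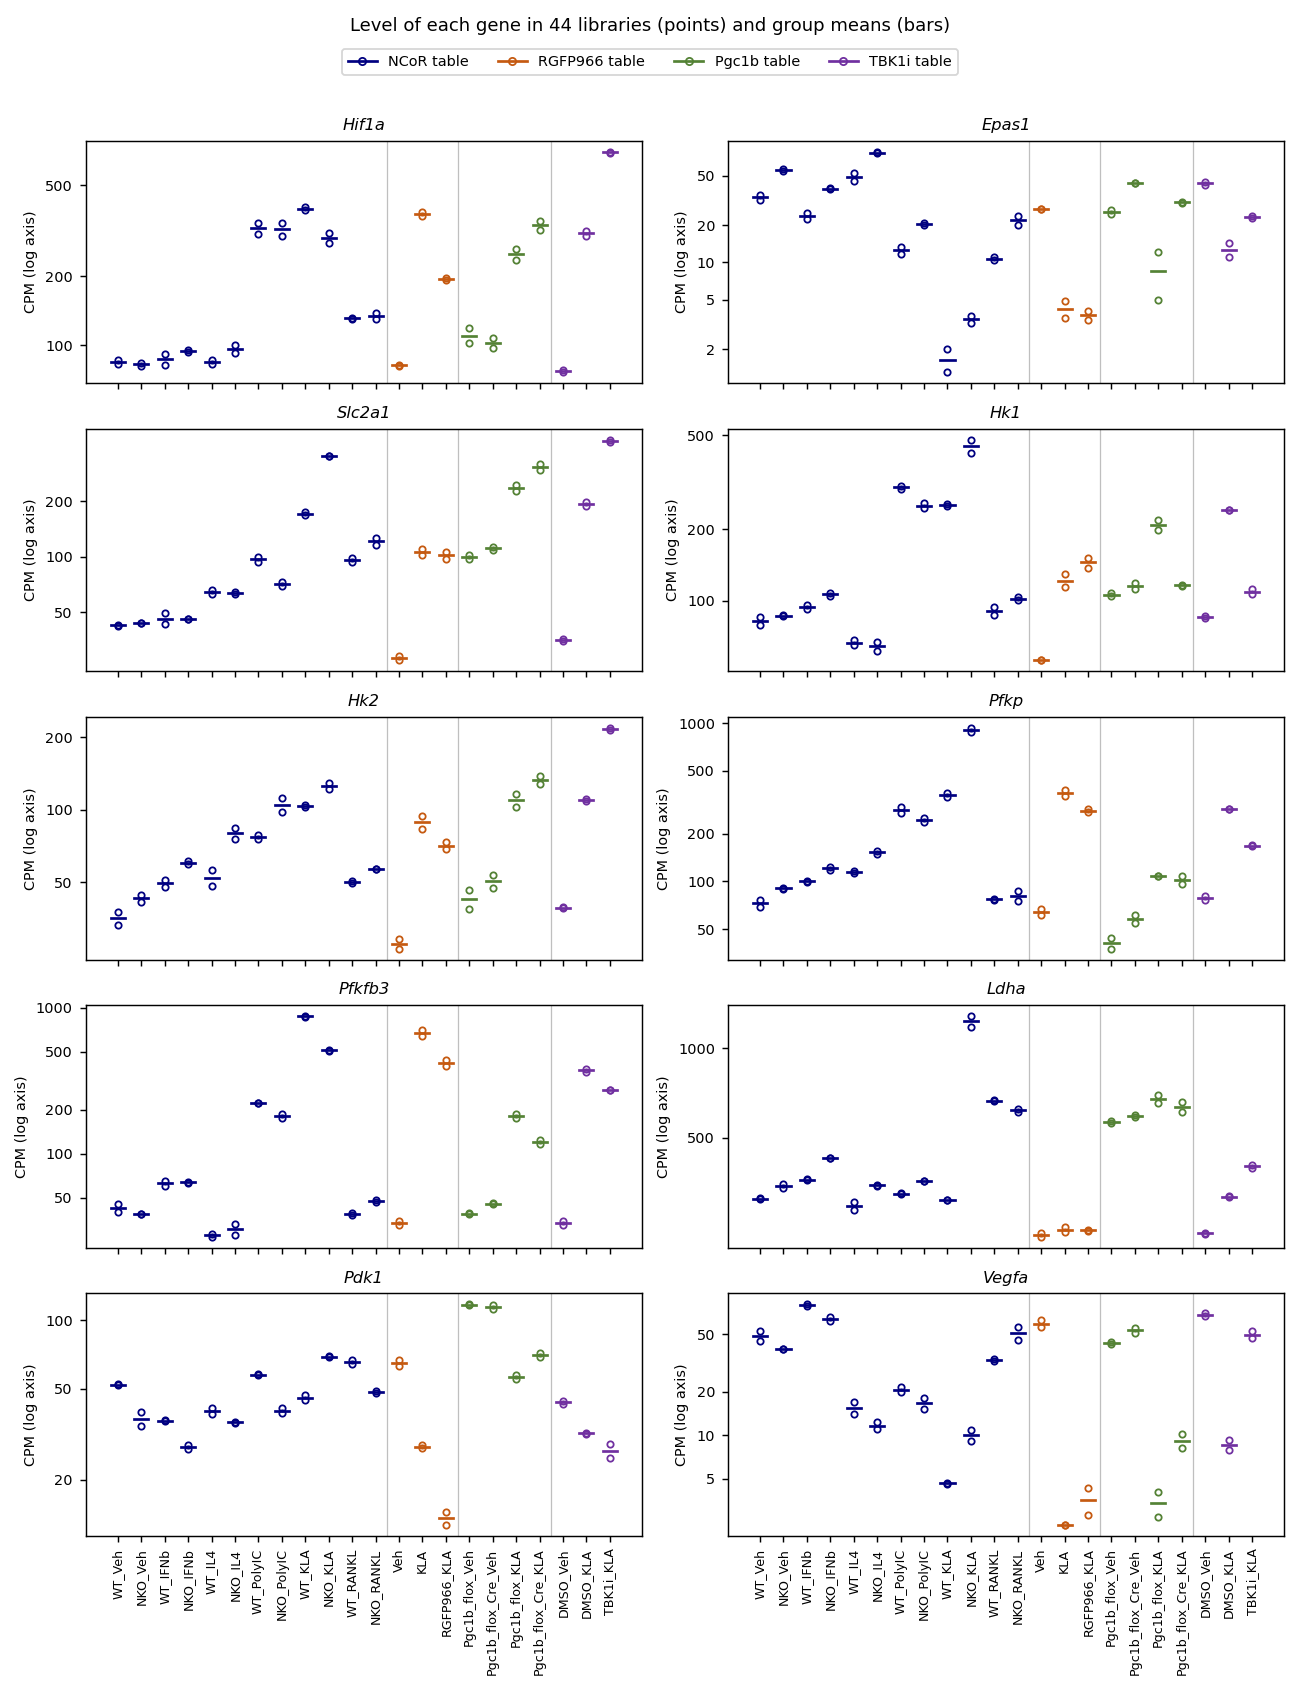
Level of each of the 10 genes (CPM, log axis) in the 44 libraries, with 1 panel per gene, groups along the x axis, open points for libraries, bars for group means and colours for the 4 tables. Hif1a and Pfkfb3 stand high in every KLA and poly I:C group, Epas1 and Vegfa stand low in most KLA groups, and Ldha is highest in NKO_KLA, at 1278 and 1179.9 CPM.

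KLA changed most of these genes in the same way in all 4 independent sets of control cells. Hif1a, Slc2a1, Hk1, Hk2, Pfkp and Pfkfb3 rose in every set, Epas1 and Vegfa fell in every set, Pdk1 fell in 2, and Ldha was called in none. A gene was called where edgeR's quasi-likelihood test gave a Benjamini-Hochberg adjusted p below 0.05 and the fold change exceeded 1.5. KLA moved much of the transcriptome: 57.8% of tested genes were called in WT_KLA against WT_Veh (25.4% higher, 32.3% lower), beside 8 of the 10 members. The share was 60% in KLA against Veh of the RGFP966 table (27.9% higher, 32.2% lower), beside 9 members. It was 48.5% in Pgc1b_flox_KLA against Pgc1b_flox_Veh (22.8% higher, 25.7% lower), beside 9 members, and 58.9% in DMSO_KLA against DMSO_Veh (29.6% higher, 29.3% lower), beside 8 members. Of 11757 genes tested in all 4 sets, 18.9% were called higher in each and 19.1% lower in each. The counts of members are therefore not read as particular to them, and what follows concerns sizes and exceptions.

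Hif1a, the oxygen-labile factor, was at 85.7 and 82.4 CPM in WT_Veh and 391 and 401 CPM in WT_KLA. The difference was 2.23 ± 0.065 on the log2 scale (SE, n = 2 per group, adjusted p = 2.26e-37). It was 2.20 ± 0.061 in the RGFP966 table, 2.00 ± 0.048 in the TBK1i table and 1.18 ± 0.080 in the Pgc1b table, with the KLA libraries above all vehicle libraries in each. Epas1 moved the other way. Its 2 WT_Veh libraries held 32.1 and 34.8 CPM and its 2 WT_KLA libraries 1.31 and 2.00 CPM, a fall of 20.1-fold (log2 difference -4.33 ± 0.20, adjusted p = 6.06e-28). In the other sets Epas1 went from 26.9 and 26.7 CPM to 4.88 and 3.54 CPM (log2 difference -2.68 ± 0.16), from 24.6 and 26.4 CPM to 5.00 and 12.2 CPM (-1.61 ± 0.22), and from 44.5 and 42.1 CPM to 14.4 and 10.99 CPM (-1.77 ± 0.11). The size of the fall thus differed between sets, and the 2 Pgc1b_flox_KLA libraries differed from each other by a larger ratio than any other pair of replicates for this gene. Per kb, the ratio of Hif1a to Epas1 went from 3.01 and 2.66 in WT_Veh to 335 and 225 in WT_KLA.

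Slc2a1, which encodes the glucose transporter GLUT1, rose from 42.8 and 42.4 CPM to 168 and 174 CPM in WT cells (log2 difference 2.01 ± 0.068, adjusted p = 2.49e-35). The other 3 sets gave 1.91 ± 0.077, 1.24 ± 0.073 and 2.45 ± 0.058 (RGFP966, Pgc1b and TBK1i tables). Both hexokinases, which phosphorylate glucose, rose as well. Hk1 went from 79.0 and 85.6 CPM to 256 and 250.1 CPM (log2 difference 1.62 ± 0.063) and Hk2 from 33.2 and 37.6 CPM to 103 and 104 CPM (1.55 ± 0.081). Across the 4 sets the difference lay between 0.98 and 1.62 for Hk1 and between 1.36 and 1.68 for Hk2.

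Pfkp, the platelet-type phosphofructokinase, rose from 76.2 and 69.0 CPM to 340.1 and 362 CPM (log2 difference 2.27 ± 0.064), with 2.50 ± 0.064, 1.42 ± 0.097 and 1.86 ± 0.051 in the other sets. Pfkfb3 makes fructose 2,6-bisphosphate, the strongest activator of phosphofructokinase. It was at 40.0 and 45.4 CPM in WT_Veh and at 873 and 876 CPM in WT_KLA, a rise of 20.5-fold (log2 difference 4.35 ± 0.065, adjusted p = 9.05e-54). The rise was 20.1-fold in the RGFP966 table, 11.1-fold in the TBK1i table and 4.67-fold in the Pgc1b table, the largest upward change among the members in each of the 4 sets. Per kb, Pfkfb3 stood at 0.040 and 0.0456 of the Ldha level in the WT_Veh libraries and at 0.885 and 0.886 of it in WT_KLA.

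Ldha, which turns pyruvate into lactate, was at 313 and 311 CPM in WT_Veh and at 308 and 309 CPM in WT_KLA (log2 difference -0.02 ± 0.053, adjusted p = 0.782). The other sets gave 0.06 ± 0.058, 0.26 ± 0.060 and 0.41 ± 0.043, of which the last 2 passed the adjusted p but not the fold. Reads of Ldha may be shared with its processed copies elsewhere in the genome, so its level is uncertain. Pdk1 showed a fall that depended on the set: from 62.9 and 66.9 CPM to 27.5 and 28.3 CPM in the RGFP966 table (log2 difference -1.21 ± 0.088), and from 117.3 and 117.1 CPM to 57.4 and 55.5 CPM in the Pgc1b table (-1.05 ± 0.086). In WT cells Pdk1 was at 51.9 and 52.7 CPM before and 46.8 and 44.8 CPM after KLA (-0.19 ± 0.083), and the TBK1i table gave -0.46 ± 0.092, both below the fold required. The KLA groups of the NCoR table differ in date from their vehicle, those of the other 3 tables do not.

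Vegfa, the angiogenic factor, fell steeply. The WT_Veh libraries held 52.6 and 44.9 CPM and the WT_KLA libraries 4.59 and 4.67 CPM, a log2 difference of -3.39 ± 0.16 (adjusted p = 1.45e-27). In the other sets it went from 62.7 and 55.8 CPM to 2.39 and 2.39 CPM (-4.63 ± 0.15), from 44.1 and 42.5 CPM to 2.71 and 4.02 CPM (-3.70 ± 0.19), and from 70.0 and 66.5 CPM to 7.85 and 9.26 CPM (-2.998 ± 0.11). No KLA library of any set reached a vehicle library. The sum of 5 fibroblast markers was 91.4 to 101.3 CPM in WT_Veh and 16.2 to 22.4 CPM in WT_KLA, where Col1a1 and Col1a2 were at 0. In the RGFP966 table that sum was 0.514 to 0.516 CPM under vehicle and 21.6 CPM in both KLA libraries. The part of these differences in the Vegfa result was not tested. The transcript counted for Vegfa in the RGFP966 table is another one, longer by 1 base (3521 against 3520 bases).

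**Figure D2:**
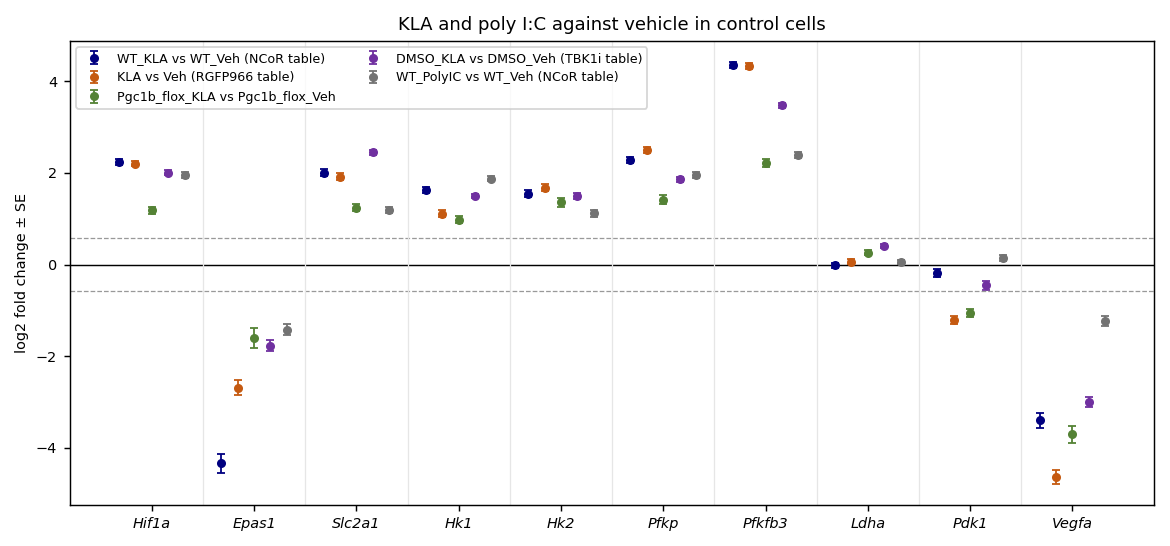
Log2 fold change (points, with SE as bars) of each gene for KLA against vehicle in 4 sets of control cells and for poly I:C against vehicle in WT cells, with dashed lines at the 1.5-fold threshold. Pfkfb3 is highest in every series, and Epas1 and Vegfa lie below the lower line in every series.

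Poly I:C raised the same 6 genes and lowered the same 2 as KLA in WT cells, at a background of 47.2% of genes called (22.2% higher, 25% lower). Both comparisons share the WT_Veh libraries. Hif1a reached 306 and 343 CPM (log2 difference 1.95 ± 0.065) and Hk1 305 and 297 CPM (1.87 ± 0.061). Pfkfb3 stood at 224 and 222 CPM (2.38 ± 0.066), where WT_KLA held 873 and 876 CPM. Epas1 fell to 11.7 and 13.3 CPM (-1.42 ± 0.12) and Vegfa to 21.4 and 20.0 CPM (-1.24 ± 0.11), and neither poly I:C value came near the WT_KLA libraries, at most 2.00 CPM for Epas1 and 4.67 CPM for Vegfa. Slc2a1 (1.18), Hk2 (1.12) and Pfkp (1.96) were also called higher, while Ldha (0.05 ± 0.052, adjusted p = 0.369) and Pdk1 (0.14 ± 0.075, adjusted p = 0.0863) did not pass the test.

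IFNb changed 1 member past the threshold, beside 6.47% of all genes called (4.09% higher, 2.37% lower). Vegfa rose from 52.6 and 44.9 CPM to 78.7 and 80.4 CPM (log2 difference 0.71 ± 0.081, adjusted p = 1.91e-10), opposite to its fall under KLA and poly I:C. A further 7 members passed the adjusted p below 1.5-fold, among them Pfkfb3 (0.55), Pdk1 (-0.53) and Epas1 (-0.51). Pfkfb3 passed the fold without WT_Veh replicate 2 (0.64) or WT_IFNb replicate 1 (0.61), and Epas1 without WT_IFNb replicate 2 (-0.59).

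IL4, which drives the alternative, repair-associated state, moved 4 members (13.1% of all genes were called, 6.63% higher and 6.46% lower). Vegfa fell to 17.1 and 13.9 CPM (log2 difference -1.65 ± 0.10) and Pfkfb3 to 27.1 and 28.1 CPM (-0.63 ± 0.079). Pfkp rose to 116 and 114 CPM (0.66 ± 0.064) and Slc2a1 to 62.6 and 66.2 CPM (0.60 ± 0.069). Hif1a was at 82.5 and 86.4 CPM and overlapped its vehicle libraries (0.01 ± 0.069, adjusted p = 0.969). Several of these values lie at the fold threshold: Slc2a1 gave 0.56 without WT_IL4 replicate 2 and Pfkfb3 -0.54 without WT_Veh replicate 2, both uncalled, whereas Epas1 (0.54) and Hk2 (0.56) became called at 0.60 and 0.65 without WT_Veh replicate 2 and at 0.65 and 0.67 without WT_IL4 replicate 1.

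In the RANKL libraries, whose column names call the cells osteoclasts, Ldha was at 663 and 669 CPM against 313 and 311 CPM in WT_Veh (log2 difference 1.09 ± 0.050, adjusted p = 6.15e-28). Slc2a1 rose to 94.0 and 98.5 CPM (1.18 ± 0.066) and Hif1a to 131 and 130.4 CPM (0.64 ± 0.066), while Epas1 fell to 10.99 and 10.4 CPM (-1.64 ± 0.11). Thus 4 members were called, against 43.8% of all genes (24.1% higher, 19.8% lower). Hk2 (0.50) and Vegfa (-0.57) became called at 0.59 and -0.68 without WT_Veh replicate 2, and Vegfa also at -0.59 without WT_RANKL replicate 2. Time and date differ from the vehicle, and the cells differ in makeup: the sum of 7 neutrophil markers was 1123 to 1235 CPM in WT_RANKL and 1575 to 1645 CPM in NKO_RANKL against 3.01 to 7.15 CPM in WT_Veh, where Mpo and Elane were at 0, and all 7 were called higher. Their part in the result was not tested. Fibroblast markers summed to 199 to 227 CPM in WT_RANKL. Osteoclast markers parted: of 7 tested, 3 were called higher and 1 lower (median log2 difference 0.22). Acp5, which encodes the acid phosphatase of osteoclasts, rose from a mean of 24.4 to 46.3 CPM and Dcstamp from 10.1 to 17.4 CPM, while Atp6v0d2, a proton pump subunit, fell from 899 to 66.6 CPM, so that the sum of the 8 listed markers was 293 to 304 CPM in WT_RANKL and 1017 to 1175 CPM in WT_Veh. In bulk RNA, a change in the share of a cell type and a change of RNA per cell cannot be told apart.

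Other genes of glycolysis and of the HIF pathway were called in both directions under KLA. Of 22 further glycolysis genes, 6 were called higher and 8 lower in WT_KLA against WT_Veh (median log2 difference -0.38, against -0.14 over all genes tested), where 25.4% of all genes were called higher and 32.3% lower. Under poly I:C, 4 were called higher and 9 lower, beside 22.2% and 25% of all genes. At these backgrounds the counts under KLA and poly I:C, here and for the lists that follow, are given as a description of the lists and not as particular to them. Slc2a6, a lysosomal hexose transporter, showed the largest rise, from a mean of 18.8 to 1587 CPM (log2 difference 6.40 ± 0.099), and Pfkfb2, a relative of Pfkfb3, fell (-2.42 ± 0.17). With RANKL, 13 of the 22 were called higher and 3 lower (median 1.08, against 0.02 over all genes, of which 24.1% were called higher and 19.8% lower), with Pgk1 at 2.04 ± 0.11 and Eno2 at -2.00 ± 0.18, and 5 of 7 pentose phosphate genes were called higher, led by Pgd (1.70 ± 0.054). Of 18 other known HIF targets, 4 were called higher and 8 lower under KLA in WT cells (median -0.55). Ak4, an adenylate kinase, and P4ha1, a collagen prolyl hydroxylase, rose by 4.35 ± 0.24 and 2.17 ± 0.071, while Mxi1 (-3.46 ± 0.16) and Bhlhe40 (-2.95 ± 0.19), both transcriptional repressors, fell. Among regulators of the HIF proteins, 2 of 7 tested were called higher under KLA, the prolyl hydroxylase Egln2 (0.90 ± 0.083) and Vhl (0.74 ± 0.11). The other pyruvate dehydrogenase kinases moved apart, with Pdk3 up by 2.39 ± 0.12 and Pdk2 down by 4.85 ± 0.25, from a mean of 26.5 to 0.912 CPM. Of 8 relatives and receptors of Vegfa, 5 were called higher, led by the receptors Kdr (4.99 ± 0.11) and Flt1 (4.50 ± 0.19), and 2 lower, the coreceptor Nrp1 (-2.88 ± 0.069) and the ligand Vegfb (-1.92 ± 0.17).

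Epas1 was called higher in NKO than in WT cells in all 6 comparisons of the NCoR table, of which the one under KLA did not hold against the KLA-treated controls of the other 3 tables. Its levels were 55.9 and 54.5 against 32.1 and 34.8 CPM under vehicle (log2 difference 0.72 ± 0.083, adjusted p = 2.75e-10), 38.8 and 39.5 against 22.2 and 25.0 CPM with IFNb (0.74 ± 0.092), and 77.5 and 75.5 against 45.0 and 52.4 CPM with IL4 (0.65 ± 0.079). With poly I:C it was at 20.7 and 20.0 against 11.7 and 13.3 CPM (0.70 ± 0.13), with RANKL at 20.2 and 23.7 against 10.99 and 10.4 CPM (1.03 ± 0.12), and with KLA at 3.27 and 3.71 against 1.31 and 2.00 CPM (1.07 ± 0.34, adjusted p = 0.00469). The NKO libraries lay above the WT libraries in each. The genotypes also differed in osteoclast markers, whose sum was 2188 to 2222 CPM in NKO_Veh and 1017 to 1175 CPM in WT_Veh. Of 7 tested, 4 were called higher and 0 lower in NKO under vehicle. Under KLA 4 were called higher and 2 lower, and with RANKL 2 and 2. The part of this difference in the Epas1 result was not tested. The shares of all genes called were 6.21% under vehicle (2.4% higher, 3.8% lower), 3.8% with IFNb (1.86% higher, 1.94% lower) and 4.24% with IL4 (1.9% higher, 2.33% lower). They were 5.93% with poly I:C (3.01% higher, 2.92% lower), 13.2% with RANKL (6.21% higher, 6.99% lower) and 40% with KLA (21% higher, 19% lower). Of 13407 genes tested, 18 (0.134%) were called higher in all 6 comparisons, and 35 (0.261%) in the 5 without KLA. The KLA and IL4 calls each rest on 1 library: without WT_KLA replicate 1 the KLA difference was 0.80 with an adjusted p of 0.102, and without WT_IL4 replicate 1 the IL4 difference was 0.55.

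A second myeloid Cre line gave the same direction for Epas1. Pgc1b_flox_Cre_Veh held 43.2 and 43.7 CPM and Pgc1b_flox_Veh 24.6 and 26.4 CPM, without overlap (log2 difference 0.77 ± 0.17, adjusted p = 0.0316), in a comparison where 0.303% of all genes were called (0.164% higher, 0.139% lower). DESeq2 gave the same difference, 0.77, with no adjusted p, and the adjusted p rose to between 0.0652 and 0.347 when any of the 4 libraries was left out. The lists of NKO_Veh and Pgc1b_flox_Cre_Veh, which share no library, had 11 genes called higher in common, Epas1 among them, which is 3.42% of the NKO list and 55% of the Pgc1b list. Over the 6 NKO comparisons and the 2 of the Pgc1b line, Epas1 and Fn1 (fibronectin, chosen for naming after its values were seen) were the 2 genes called higher in all 8, out of 12131 tested (0.0165%). Both lines carry LysM-Cre, and neither has a control that carries Cre without a floxed gene, so that Cre and the deleted gene cannot be told apart.

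Outside KLA, 2 other members were called between the genotypes, each in 1 condition. Hk2 was called higher in NKO_IL4, at 75.7 and 83.7 against 48.1 and 56.2 CPM (log2 difference 0.61 ± 0.073), a call lost at 0.51 without WT_IL4 replicate 1 and at 0.54 without NKO_IL4 replicate 2. Vegfa was called higher in NKO_RANKL, at 45.5 and 56.4 against 32.4 and 33.6 CPM (0.62 ± 0.092), lost at 0.46 without NKO_RANKL replicate 2. Pdk1 was lower in NKO under vehicle (-0.51 ± 0.073), IFNb (-0.38 ± 0.081), poly I:C (-0.53 ± 0.082) and RANKL (-0.44 ± 0.072) at an adjusted p of at most 0.000334, each below 1.5-fold, and reached the fold under vehicle without NKO_Veh replicate 1 (-0.61). Hif1a differed by at most 0.18 in size in these 5 conditions, with adjusted p from 0.0516 to 0.925. Of 18 other HIF targets, 2 were called higher and 0 lower in NKO under vehicle, and 1 and 3 with IFNb. The counts were 2 and 0 with IL4, 3 and 2 with poly I:C, and 0 and 0 with RANKL. In that order, 6.21%, 3.8%, 4.24%, 5.93% and 13.2% of all genes were called. Among these targets, Bhlhe40 was called higher in NKO under vehicle (1.50 ± 0.087), IFNb (1.50 ± 0.093), IL4 (1.00 ± 0.071) and poly I:C (0.97 ± 0.16).

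**Figure D3:**
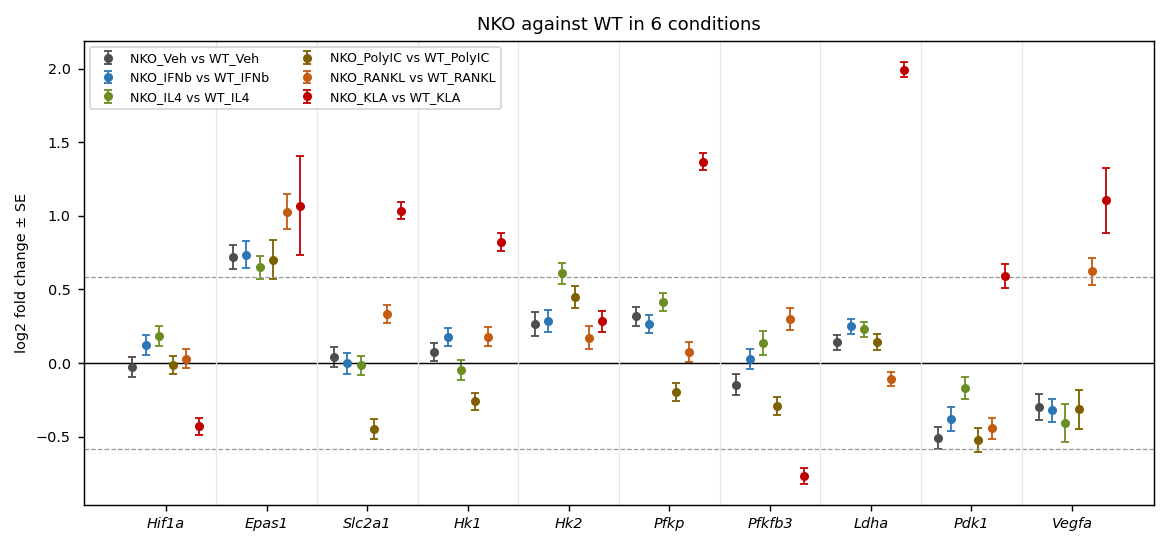
Log2 fold change (points, with SE as bars) of NKO against WT for each gene in 6 conditions, with dashed lines at the 1.5-fold threshold. Epas1 lies above the upper line in all 6, and the KLA points of Slc2a1, Hk1, Pfkp, Ldha and Vegfa stand above those of the other conditions.

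Under KLA, 8 of the 10 members were called between NKO and WT, where 40% of all genes were (21% higher, 19% lower). Ldha was at 1278 and 1179.9 CPM in NKO_KLA and at 308 and 309 CPM in WT_KLA, 3.98-fold higher (log2 difference 1.99 ± 0.053, adjusted p = 4.00e-39). Pfkp was at 932 and 878 CPM against 340.1 and 362 CPM (1.37 ± 0.057), Slc2a1 at 351 and 349.7 CPM against 168 and 174 CPM (1.03 ± 0.058), and Hk1 at 477 and 419 CPM against 256 and 250.1 CPM (0.82 ± 0.058). These glycolytic genes were all higher in NKO_KLA, without overlap. Vegfa was at 10.8 and 9.05 CPM against 4.59 and 4.67 CPM (1.11 ± 0.22), and Pdk1 at 69.5 and 68.7 CPM against 46.8 and 44.8 CPM (0.59 ± 0.082). Pfkfb3, the activator of phosphofructokinase, was lower, at 509.9 and 518 CPM against 873 and 876 CPM (-0.77 ± 0.053). Hif1a was lower without reaching the fold, at 309 and 278 CPM against 391 and 401 CPM (-0.43 ± 0.061). Pdk1 lies at the threshold and was uncalled at 0.57 with DESeq2 size factors and at 0.56 without WT_KLA replicate 2. The genotype differences under KLA departed from those under vehicle, by the interaction term, for Ldha (1.85 ± 0.073), Vegfa (1.41 ± 0.24), Pdk1 (1.10 ± 0.11), Pfkp (1.05 ± 0.086), Slc2a1 (0.99 ± 0.092), Hk1 (0.75 ± 0.086) and Pfkfb3 (-0.62 ± 0.090), 7 of 10 members beside 36.9% of all genes (19.9% higher, 17% lower). Pfkfb3 gave -0.53 without WT_Veh replicate 1. The interaction was called for 1 member with RANKL (Vegfa, 0.92 ± 0.13), beside 14.2% of all genes (7.26% higher, 6.97% lower). With poly I:C it was called for 0 members (3.24% of all genes, 2.13% higher and 1.1% lower, while 3 members had an unadjusted p below 0.05), with IFNb for 0 (0.604% of genes, 0.552% higher and 0.0522% lower, while 0 members had one) and with IL4 for 0 (0.604%, 0.351% higher and 0.254% lower, while 4 had one), and DESeq2 also gave 0 for each.

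Because NKO_KLA is set apart from WT_KLA by date and sex, it was also compared, in 1 joint fit, with the controls given KLA in each of the other 3 tables, where the shares of genes called were 38.5% against DMSO_KLA (18.1% higher, 20.3% lower), 42.7% against KLA (21.4% higher, 21.3% lower) and 34.6% against Pgc1b_flox_KLA (17.6% higher, 17% lower). Of these, Pgc1b_flox_KLA shares the low Xist of NKO_KLA, and all 3 come from another table. None shares its date: NKO_KLA is dated 1516 days before WT_Veh, KLA 64 days before it, and DMSO_KLA and Pgc1b_flox_KLA after it. Date and genotype therefore cannot be told apart in these comparisons either. Ldha stayed higher in NKO_KLA against each: 1.90 ± 0.051 against DMSO_KLA, 2.00 ± 0.051 against KLA and 0.89 ± 0.049 against Pgc1b_flox_KLA. Slc2a1 (0.80, 1.40 and 0.59 in that order), Hk1 (0.83, 1.56 and 1.12) and Pfkp (1.60, 1.00 and 3.08) also stayed higher. The sizes varied by more than their errors, for Pfkp from 1.00 to 3.08. Vegfa was higher against KLA (1.74) and Pgc1b_flox_KLA (1.61) and not called against DMSO_KLA (0.17, adjusted p = 0.427). On the scale of the joint fit, mean Pdk1 was 71.5 CPM in NKO_KLA, against 34.4 (DMSO_KLA), 36.1 (KLA) and 57.6 CPM (Pgc1b_flox_KLA). Mean Hk2 was 130 CPM in NKO_KLA, against 118, 115 and 112 CPM in the same order. For 3 members the direction turned with the control. Hif1a was lower in NKO_KLA than in KLA (-0.67) and higher than in Pgc1b_flox_KLA (0.26, adjusted p = 0.000486, below the fold), and against DMSO_KLA it gave -0.13 (adjusted p = 0.0754). Epas1 was lower in NKO_KLA than in DMSO_KLA (-1.92), KLA (-0.58, adjusted p = 0.0491, below the fold) and Pgc1b_flox_KLA (-1.23), and Pfkfb3 was lower against KLA (-0.71) but higher against DMSO_KLA (0.41, below the fold) and Pgc1b_flox_KLA (1.52). The higher Epas1 in NKO_KLA therefore holds against WT_KLA alone.

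**Figure D4:**
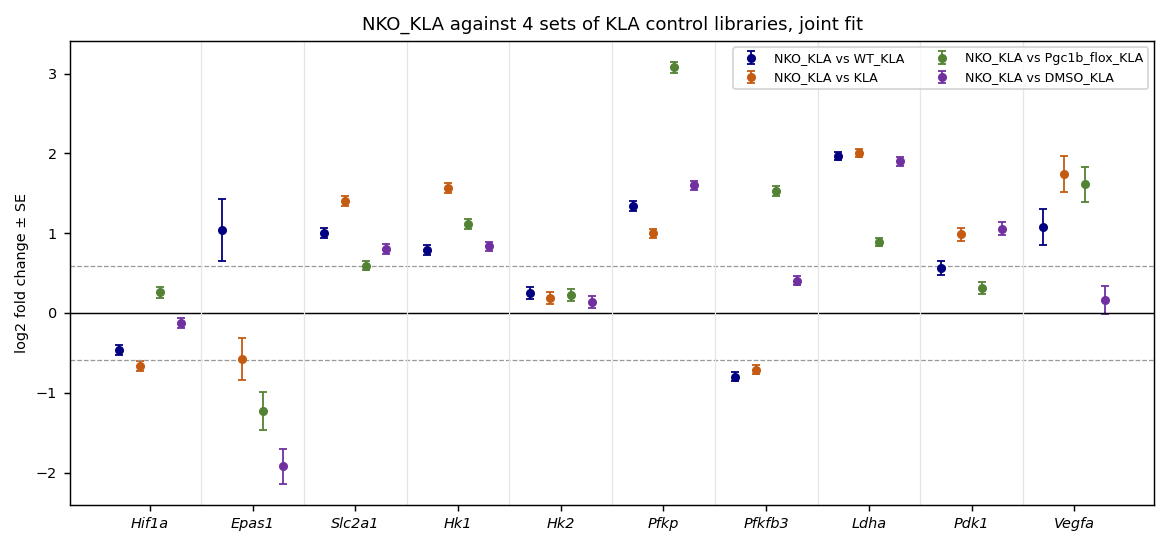
Log2 fold change (points, with SE as bars) of NKO_KLA against each of 4 sets of control libraries under KLA, from 1 joint fit of all tables, with dashed lines at the 1.5-fold threshold. Ldha, Slc2a1, Hk1 and Pfkp are among the genes above 0 against all 4 sets, and Hif1a, Epas1 and Pfkfb3 change sign between sets.

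Of the 22 further glycolysis genes, 13 were called higher and 2 lower in NKO_KLA against WT_KLA (median 1.03, against 0.07 over all genes, of which 21% were called higher and 19% lower). In each of the other 5 conditions 0 or 1 was called higher, where only 1.86 to 6.21% of all genes were. With RANKL, 2 were called lower, beside 6.99% of all genes. The lactate exporter Slc16a3 (2.02 ± 0.069, a mean of 289 against 71.4 CPM) and pyruvate kinase Pkm (1.92 ± 0.056, 1869 against 493 CPM) rose most, and Pgam1 was lower (-0.87 ± 0.18). Of 13 genes for the entry of pyruvate into mitochondrial metabolism, 4 were called higher and 2 lower in NKO_KLA (median log2 difference -0.12). Mpc1, a subunit of the mitochondrial pyruvate carrier, was higher by 2.63 ± 0.21. With RANKL, 2 of 8 relatives and receptors of Vegfa were called higher and 3 lower in NKO, beside 6.21% and 6.99% of all genes. Among them the ligand Pgf was lower (-3.13 ± 0.30). The same confounding by date and sex holds for these KLA values.

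In cells given RGFP966 before KLA, Hif1a and 2 others were lower than with KLA alone, where 25.4% of all genes were called (15.8% higher, 9.54% lower). Hif1a was at 197 and 192 CPM in RGFP966_KLA and at 382 and 367 CPM in KLA (log2 difference -0.94 ± 0.058, adjusted p = 7.95e-25). Pdk1 fell to 12.7 and 14.5 CPM from 27.5 and 28.3 CPM (-1.04 ± 0.11), its lowest level in the series, and Pfkfb3 to 399 and 439 CPM from 710.2 and 639.7 CPM (-0.69 ± 0.058). Ldha (-0.01 ± 0.059, adjusted p = 0.91) and Slc2a1 (-0.07 ± 0.070, adjusted p = 0.461) overlapped their controls. Vegfa, at 2.80 and 4.28 CPM against 2.39 and 2.39 CPM, gave 0.56 ± 0.26 (adjusted p = 0.0599) and was called at 0.84 without RGFP966_KLA replicate 1. The RGFP966_KLA replicates are dated 14 days apart. Of 21 further glycolysis genes, 7 were called higher and 0 lower, led by Pfkfb4 (2.01 ± 0.11).

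In KLA-treated Pgc1b flox Cre cells, 4 members were called against Pgc1b_flox_KLA (26.1% of all genes, 13.2% higher and 12.9% lower), the groups whose column names differ in stating the time of KLA. Epas1 was at 30.8 and 30.1 CPM against 5.00 and 12.2 CPM (log2 difference 1.87 ± 0.22, adjusted p = 2.25e-07), so that the fall seen with KLA in the flox cells was smaller in the Cre cells, from 43.2 and 43.7 CPM. Vegfa was at 8.12 and 10.1 CPM against 2.71 and 4.02 CPM (1.46 ± 0.23). Hk1 was lower, at 117.1 and 116.1 CPM against 219 and 199 CPM (-0.84 ± 0.076), close to its vehicle level of 112.0 and 118.8 CPM, and Pfkfb3 was lower at 116.4 and 124.5 CPM against 176 and 187 CPM (-0.59 ± 0.080). Pfkfb3 lies at the threshold and was uncalled at -0.52 without Pgc1b_flox_KLA replicate 2 and at -0.52 without Pgc1b_flox_Cre_KLA replicate 1. The interaction of Cre and KLA was called for Epas1 (1.10 ± 0.28), Vegfa (1.16 ± 0.26), Hk1 (-0.96 ± 0.11), Pfkfb3 (-0.81 ± 0.12) and Pfkp (-0.60 ± 0.13), 5 members beside 22.8% of all genes (11.6% higher, 11.2% lower). Of these, Epas1 fell to 0.57 without Pgc1b_flox_KLA replicate 1 and had an adjusted p of 0.176 with DESeq2, and Pfkp was between -0.49 and -0.58 when Pgc1b_flox_Veh replicate 2, Pgc1b_flox_Cre_Veh replicate 1, Pgc1b_flox_Cre_KLA replicate 1 or either Pgc1b_flox_KLA replicate was left out. Hif1a (0.52) became called, at 0.60 to 0.63, without Pgc1b_flox_Veh replicate 2, Pgc1b_flox_Cre_Veh replicate 2, Pgc1b_flox_KLA replicate 2 or Pgc1b_flox_Cre_KLA replicate 1. Among other HIF targets, 7 of 18 were called higher and 1 lower, with Adm, which encodes adrenomedullin, at 2.45 ± 0.48 and Bhlhe40 at 1.96 ± 0.12.

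TBK1i moved 7 members past the threshold under KLA, 5 higher and 2 lower, where 33.3% of all genes were called (15% higher, 18.3% lower). Hif1a was at 696 and 702 CPM in TBK1i_KLA against 302 and 316 CPM in DMSO_KLA (log2 difference 1.18 ± 0.042, adjusted p = 3.65e-172). Vegfa was at 47.2 and 52.3 CPM against 7.85 and 9.26 CPM, 5.81-fold higher (2.54 ± 0.12), below the 70.0 and 66.5 CPM of DMSO_Veh. Epas1 was at 23.8 and 22.7 CPM against 14.4 and 10.99 CPM (0.87 ± 0.13), and Slc2a1 at 417 and 429 CPM against 197 and 189 CPM (1.13 ± 0.047). Both HIF subunits, the glucose transporter and Vegfa thus were higher with the inhibitor, without overlap. The hexokinases parted: Hk2 rose to 214 and 218 CPM from 111 and 108 CPM (0.98 ± 0.056), while Hk1 fell to 106 and 112 CPM from 241 and 241 CPM (-1.15 ± 0.054). Per kb, the ratio of Hk1 to Hk2 went from 2.88 and 2.96 to 0.661 and 0.679. Pfkp fell to 169 and 168 CPM from 287 and 287 CPM (-0.77 ± 0.049), and Pfkfb3 (-0.44), Ldha (0.34) and Pdk1 (-0.25) passed the adjusted p below 1.5-fold. No call changed when a library was left out. Of 18 other HIF targets, 13 were called higher and 1 lower (median 1.27, against 0.01 over all genes), with Adm at 2.84 ± 0.18, the stress gene Ddit4 at 2.71 ± 0.33 and P4ha1 lower by 1.20 ± 0.056. Of the 22 further glycolysis genes, 6 were called higher and 3 lower, with Slc16a3 at 1.82 ± 0.058, the liver-type phosphofructokinase Pfkl at 1.48 ± 0.065 and the hexokinase Hk3 at -1.86 ± 0.042. The prolyl hydroxylase Egln1, itself a HIF target, rose by 1.39 ± 0.082, and Kdr fell from a mean of 123 to 4.07 CPM.

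**Figure D5:**
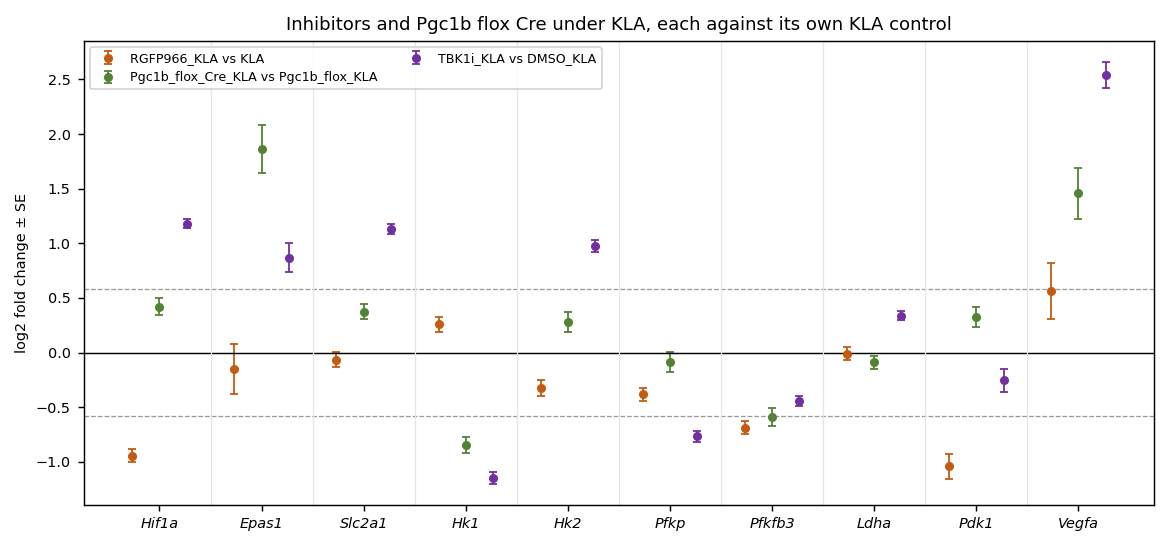
Log2 fold change (points, with SE as bars) of each gene for RGFP966_KLA, Pgc1b_flox_Cre_KLA and TBK1i_KLA, each against its own KLA control, with dashed lines at the 1.5-fold threshold. Hif1a lies at -0.94 with RGFP966 and at 1.18 with TBK1i, and Vegfa reaches 2.54 with TBK1i.

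Set side by side, the 3 comparisons under KLA gave Hif1a -0.94 with RGFP966, 0.42 in Pgc1b flox Cre cells and 1.18 with TBK1i. Hk1 was 0.26, -0.84 and -1.15, and Pfkfb3 -0.69, -0.59 and -0.44 in the same order. They come from separate tables, and the differences between them were not tested.

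On 1 scale for all 22 groups (joint TMM CPM), TBK1i_KLA held the highest Hif1a (757 CPM, against 84.0 CPM in DMSO_Veh, a 9.01-fold span), Slc2a1 (458 CPM, against 35.9 CPM in Veh, 12.8-fold) and Hk2 (234 CPM, against 35.1 CPM in Veh, 6.67-fold). NKO_KLA held the highest Ldha (1273 CPM, against 260.3 CPM in DMSO_Veh, 4.89-fold), Pfkp (937 CPM, against 42.2 CPM in Pgc1b_flox_Veh, 22.2-fold) and Hk1 (464 CPM, against 65.3 CPM in NKO_IL4, 7.10-fold). Pfkfb3 was highest in WT_KLA (925 CPM) and KLA (872 CPM), which overlapped, and lowest in WT_IL4 (27.7 CPM). Epas1 ran from 77.5 CPM in NKO_IL4 to 1.75 CPM in WT_KLA, a 44.3-fold span and the widest of the 10, followed by NKO_Veh (56.5 CPM) at the top and NKO_KLA (3.61 CPM) at the bottom. Vegfa was highest in WT_IFNb (80.7 CPM) and lowest in KLA (3.09 CPM), where the 4 lowest groups overlapped in sequence. Pdk1 ran from 121 CPM in Pgc1b_flox_Veh, which overlapped Pgc1b_flox_Cre_Veh (119 CPM), to 17.01 CPM in RGFP966_KLA. Of the 21 neighbouring pairs in each order, those whose libraries overlapped numbered 13 for Hif1a, 12 for Hk2 and Vegfa, 10 for Epas1, 9 for Pfkfb3 and Pdk1, 8 for Hk1 and Ldha, 7 for Pfkp and 6 for Slc2a1. These orders cross tables whose differences in table and treatment cannot be told apart, and CPM without the TMM factors moved a group by up to 10 places, for Hk1.

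Patterns over the 22 groups were compared as a description, on group means of log2 CPM centred within each table, over 9125 genes. The members most alike were Hif1a and Hk2 (Pearson r = 0.92), Pfkp and Pfkfb3 (0.91) and Hif1a and Pfkfb3 (0.89), while Hif1a and Epas1 ran opposite (-0.71). Ldha and Pdk1 stood apart, with r to Hif1a of 0.32 and -0.17. The genes closest to each member were Ppm1b (0.97) and Ncoa5 (0.97) for Hif1a, Galc (0.95) and Clcn4 (0.95) for Epas1, Psmc5 (0.95) and E2f4 (0.95) for Slc2a1, Acaa1a (0.98) and P2ry13 (0.97) for Hk1, and Ak4 (0.95) and Slc30a9 (0.94) for Hk2. For Pfkp they were Tbc1d22b (0.96) and Fbxw8 (0.96), for Pfkfb3 Myadm (0.98) and Inpp5b (0.98), for Ldha Aldoart1 (0.94) and Romo1 (0.94), for Pdk1 Cenpe (0.82) and Mastl (0.81), and for Vegfa B3gnt8 (0.92) and R3hdm1 (0.91). Groups that share a table share date stamps and normalization, so these points are not independent.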

How the data were processed

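Poly(A) RNA-seq counts of 44 libraries in 4 tables were used as deposited. Per the file headers and the study's methods, the authors aligned reads with STAR to mm10 and counted raw reads over exons of RefSeq transcripts with HOMER, without normalization. The methods call the libraries strand-specific, the header command names no strand option. Of mapped reads, 83.7 to 89.3% were in genes.

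From these counts, each table was fitted on all its groups with edgeR 4.0.16 (R 4.3.3): genes kept by filterByExpr (13407 in the NCoR, 12196 in the RGFP966, 12205 in the Pgc1b and 12332 in the TBK1i table), TMM scaling, robust quasi-likelihood F test, Benjamini-Hochberg adjustment over all genes tested. Genes were called at adjusted p below 0.05 with over 1.5-fold change. The SE is the log2 fold change divided by the square root of F. Levels are TMM CPM within a table. Levels across tables come from a joint fit of 12469 genes, kept by the same filter among the transcripts listed in all 4 tables, with Vegfa matched by symbol. DESeq2 1.42.0, other filters, scalings and left-out libraries were alternatives, and the scripts were tested on simulated data. Promoter windows came from RefSeq (GRCm38.p6), figures from matplotlib 3.10.9 in Python 3.11.15.

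The 10 members and all gene lists were chosen with earlier results of these data known. Named genes are the members, in each list up to 2 called higher and 2 called lower genes with the largest change that average at least 5 CPM in a compared group, and the 2 genes most like each member. Of the lists, Figf and Emr1 were matched by no symbol in the tables.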

Additional observations from a re-analysis of the deposited data

Results flagged for a closer look

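These results are given because an effect differed between groups by the interaction term of the edgeR fit, past the same thresholds of adjusted p and fold. All are log2 differences between differences.

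The log2 difference of NKO against WT was more positive under KLA than under vehicle for Ldha (1.85 ± 0.073, adjusted p = 2.56e-30), Vegfa (1.41 ± 0.24, adjusted p = 8.86e-07), Pdk1 (1.10 ± 0.11, adjusted p = 4.22e-13), Pfkp (1.05 ± 0.086, adjusted p = 4.01e-16), Slc2a1 (0.99 ± 0.092, adjusted p = 3.77e-14) and Hk1 (0.75 ± 0.086, adjusted p = 4.98e-11). It moved the other way for Pfkfb3 (-0.62 ± 0.090, adjusted p = 3.63e-08), which was below the fold at -0.53 without WT_Veh replicate 1. For Pdk1 and Vegfa the direction turned. Mean Pdk1 in NKO against WT was 36.9 against 52.3 CPM under vehicle and 69.1 against 45.8 CPM under KLA. Mean Vegfa was 39.6 against 48.8 CPM under vehicle and 9.94 against 4.63 CPM under KLA. The NKO_KLA libraries differ from the other 3 groups of this term in date and in Xist, which cannot be told apart from genotype. Under RANKL the Vegfa difference was more positive than under vehicle by 0.92 ± 0.13 (adjusted p = 3.38e-08), with means of 50.9 CPM in NKO and 33.0 CPM in WT.

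Between Pgc1b flox cells with and without Cre, all dated alike, the fall with KLA was smaller with Cre for Epas1 (1.10 ± 0.28, adjusted p = 0.00394) and Vegfa (1.16 ± 0.26, adjusted p = 0.000648). The rise with KLA was smaller with Cre for Hk1 (-0.96 ± 0.11, adjusted p = 3.56e-09), Pfkfb3 (-0.81 ± 0.12, adjusted p = 1.08e-06) and Pfkp (-0.60 ± 0.13, adjusted p = 0.000506). The Epas1 call rests on 1 library: it was 0.57, below the fold, without Pgc1b_flox_KLA replicate 1, and with DESeq2 its adjusted p was 0.176. The Pfkp value was below the fold, between -0.49 and -0.58, without Pgc1b_flox_Veh replicate 2, Pgc1b_flox_Cre_Veh replicate 1, Pgc1b_flox_Cre_KLA replicate 1 or either Pgc1b_flox_KLA replicate. The column names state 6 h for Pgc1b_flox_KLA and no time for Pgc1b_flox_Cre_KLA, while the labels give 6 h for both.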

How the results depend on the processing

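Of 291 counts of called members under the alternatives, 266 stayed within 1.5 times the reported count and 25 moved. Of 2910 values of single members, 2787 kept their side of the threshold (73 of these were uncalled and changed sign), 32 lost the call, 86 gained it and 5 reversed. With no fold threshold the count went from 1 to 8 for WT_IFNb, from 4 to 8 for WT_IL4 and from 4 to 7 for WT_RANKL, each against WT_Veh. Between NKO and WT it went from 1 to 6 under vehicle and with IFNb, from 1 to 8 with poly I:C, from 2 to 5 with IL4 and from 2 to 6 with RANKL. It went from 3 to 6 for RGFP966_KLA, from 1 to 2 for Pgc1b_flox_Cre_Veh, from 4 to 8 for Pgc1b_flox_Cre_KLA, and for the interactions of NKO from 0 to 3 with poly I:C and from 1 to 5 with RANKL. With DESeq2 Pgc1b_flox_Cre_Veh went from 1 to 0. When each library was left out in turn, the count ranged from 1 to 2 for WT_IFNb, NKO_Veh and NKO_RANKL, from 0 to 2 for NKO_IL4, from 0 to 1 for Pgc1b_flox_Cre_Veh and for NKO by poly I:C, and from 3 to 6 for Cre by KLA.

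Called values reversed for Epas1 in NKO_KLA against KLA (-0.58), Pgc1b_flox_KLA (-1.23) and DMSO_KLA (-1.92), and for Pfkfb3 in NKO_KLA against Pgc1b_flox_KLA (1.52) and DMSO_KLA (0.41). The cause was not tested. The joint fit with WT_KLA as the control was chosen after seeing the data and gave 7 called members in place of 8. With the replicate number as a block no call of a member changed, and WT_KLA against WT_Veh kept 8. Libraries of equal number did not deviate together (correlations from -0.06 to 0.059), so the pairing is a shared number only. With DESeq2 size factors, the median shift of the 10 members in a comparison was at most 0.069 in size. The lowest counts, 8 for Epas1 in WT_KLA, limit its precision there, and 2 libraries per group limit all tests.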
